A study of Homo sapiens with 8 samples.

Results

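The miR-34 and miR-449 family holds short regulatory RNAs (microRNAs, miRNAs) whose guide arms share a run of bases near their start. All 9 members named for it, hsa-miR-34a-5p, hsa-miR-34a-3p, hsa-miR-34b-5p, hsa-miR-34b-3p, hsa-miR-34c-5p, hsa-miR-34c-3p, hsa-miR-449a, hsa-miR-449b-5p and hsa-miR-449c-5p, had a row in the table of 2026 mature miRNAs. They were chosen by name and not by a rule on their values, though earlier results of these data were known. They are written without the species prefix from here on. The cells were HCT116, a human colorectal carcinoma line with wild-type p53, grown without serum as floating spheroids, freed of dead cells with propidium iodide and sorted by flow cytometry on surface CD44v6. CD44 is a receptor for hyaluronan, and CD44v6 its form with variant exon v6. Small RNA reads were counted in 2 samples of CD44v6-positive and 2 samples of CD44v6-negative cells, for which the labels name no drug. The 8 sequencing entries of the labels carry 4 combined identities, and each identity is 1 column of the table and 1 sample here.

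A miRNA hairpin yields a 5p and a 3p arm, of which the guide arm is kept by the silencing complex while the passenger arm is mostly degraded. Bases 2 to 8 of the guide, the seed, pair with messenger RNAs that are then repressed. The tumour suppressor p53 activates transcription of the miR-34a gene and of the joint miR-34b and miR-34c gene, whose products restrain the cell cycle and repress, among others, CDK6, MET, BCL2 and CD44. The miR-449 hairpins lie inside CDC20B and are best known from multiciliated epithelia, where they promote the formation of motile cilia.

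The mature sequences show why these miRNAs are treated as 1 family and how its members differ at the seed. RefSeq (GRCh38.p14) held mature entries for 8 of the 9 members. miR-34c-5p had no entry and is given by name only, so its seed is not shown. The sequences below run 5′ to 3′, with bases 2 to 8 in capitals. Among the guide arms with an entry, 3 had the seed GGCAGUG:
miR-34a-5p: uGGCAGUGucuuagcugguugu
miR-449a: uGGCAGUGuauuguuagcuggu
miR-449b-5p: aGGCAGUGuauuguuagcuggc

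The other 2 guide arms with an entry carry the same run of 7 bases 1 position later, starting at base 3, so that their bases 2 to 8 read AGGCAGU:
miR-34b-5p: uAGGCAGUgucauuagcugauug
miR-449c-5p: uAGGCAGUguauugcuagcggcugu

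The 3p arms are shown because miR-34a-3p had the largest fold change of the 6 tested members. They have other seeds:
miR-34a-3p: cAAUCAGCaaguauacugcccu
miR-34b-3p: cAAUCACUaacuccacugccau
miR-34c-3p: aAUCACUAaccacacggccagg

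Among 2370 mature names of RefSeq, 7 (0.295%) held GGCAGUG, read on the miRNA strand, starting at base 1 to 4. Of these, 5 were members, and the other two, miR-2682-5p and miR-4692, had 0 reads in all 4 samples. miR-449a and miR-449b-5p differ only by U1A and U22C (position counted from the 5′ end, the base of miR-449a first) and share a run of 20 bases. miR-34a-5p shares at most 9 consecutive bases with miR-449a, from which it differs by 6 edits, and is 4 edits away from miR-34b-5p. How reads that match more than 1 miRNA were counted is not given in the sources used here, so the split between miR-449a and miR-449b-5p is uncertain.

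The members come from 3 places of the genome (GRCh38). MIR34A is on the minus strand of chromosome 1 (9151668 to 9151777), where it overlaps an exon of MIR34AHG, a long noncoding RNA gene. MIR34B (111512938 to 111513021) and MIR34C (111513439 to 111513515) are 417 bases apart on chromosome 11, plus strand, within the spans that RefSeq gives for MIR34BHG and BTG4 and in no gene of their strand in GENCODE release 29. MIR449A (55170532 to 55170622), MIR449B (55170646 to 55170742) and MIR449C (55172262 to 55172353) lie on the minus strand of chromosome 5, in an intron of CDC20B, with 23 bases between the first 2 and 1519 bases between the last 2.

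The 4 libraries differed in depth. There were 7880631 and 4592278 reads from CD44v6-negative and 919802 and 154481 reads from CD44v6-positive cells. Each level is given in CPM (counts per 1000000 reads) scaled by TMM, a factor per sample that centres the bulk of miRNAs. The factors were 0.664 and 1.20 in CD44v6-negative samples 1 and 2 and 1.01 and 1.24 in CD44v6-positive samples 1 and 2. A larger factor lowers the level. Where a sample had 0 reads, its level could still be as high as that of 3 reads, which was 0.574 and 0.544 CPM in CD44v6-negative samples 1 and 2 and 3.23 and 15.6 CPM in CD44v6-positive samples 1 and 2. PCR copies of 1 molecule are counted as separate reads, so intervals and limits cover counting error only. All 7 markers of colorectal epithelium were detected in each sample, at a summed 47499 and 34721 CPM in the CD44v6-negative and 29827 and 26990 CPM in the CD44v6-positive samples. Both of the latter sums were lower, but the single markers were split. With edgeR 4 of the 7 had a log2 fold change (positive minus negative) below 0 and 3 above 0. Of markers of other cell types, the liver marker miR-122-5p had 4.59 and 3.99 CPM in the CD44v6-negative and 48.5 and 609 CPM in the CD44v6-positive samples, and the 6 blood markers summed to 3131 and 1409 CPM against 3776 and 3728 CPM. Most of the blood sum was miR-486-5p, at 2972 and 1288 CPM against 3685 and 3109 CPM. The blood marker miR-451a had 24.9 and 7.61 CPM against 15.1 and 281 CPM, so it stood high in CD44v6-positive sample 2 only. Of the 4 tested blood markers, 3 had a log2 fold change above 0 and 1 below. The 2 endothelial markers summed to 4175 and 2698 CPM against 1393 and 1099 CPM. The 3 neural markers summed to 1983 and 950 CPM against 837 and 437 CPM, of which miR-9-5p gave 1977 and 945 CPM against 836 and 437 CPM. The 3 muscle markers summed to 2.10 and 0 CPM against 6.47 and 0 CPM, with miR-206 at 0 reads throughout. All samples were sorted cells of the HCT116 line, and the source of the reads of markers of other cell types was not tested. Bulk samples cannot tell a change in the number of cells that carry a miRNA from a change in its level per cell.

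The comparison of CD44v6-positive with CD44v6-negative cells asks which miRNAs go with the surface marker used for stem-like colorectal cancer cells. Of the 9 members, 6 had enough reads to be tested. By edgeR's quasi-likelihood test with Benjamini-Hochberg adjustment 0 of the 6 passed the threshold of 0.05, and so did 0% of all 570 tested miRNAs. At an unadjusted p under 0.05 there was 1 member, miR-34a-3p, beside 30.5% of all tested miRNAs, or 17.5% counting those lower in CD44v6-positive cells. DESeq2 and limma-voom called 0 members, with 8.81% and 0.702% of their tested miRNAs called. With the sample number as a replicate block, a pairing that the labels do not state, 2 members (miR-34a-5p and miR-34a-3p) passed beside 40% of all tested miRNAs. Of the 6 log2 fold changes (positive minus negative), 4 were below and 2 above 0, with a median of -0.45 against -0.31 over all tested miRNAs. In 4 of the 6 the fold change was smaller than its standard error, as it was in 34.7% of all tested miRNAs.

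miR-34a-5p, the p53-induced guide arm that represses CD44, supplied most reads of the family. Reads of it numbered 10083 and 3297 in CD44v6-negative samples 1 and 2, against 803 and 43 in CD44v6-positive samples 1 and 2. Scaled for depth these were 1928, 597, 866 and 224 CPM in the same order. The lowest level lay in a CD44v6-positive and the highest in a CD44v6-negative sample, but the groups overlapped, because CD44v6-positive sample 1 stood above CD44v6-negative sample 2. Counting error was small beside these gaps, with 95% Poisson intervals of 1890 to 1966, 577 to 618, 807 to 928 and 162 to 302 CPM.

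Samples of the same group differed more in miR-34a-5p than the group means did. The level differed 3.23-fold between the CD44v6-negative samples and 3.87-fold between the CD44v6-positive samples, and the mean of the CD44v6-negative samples was 2.32 times that of the CD44v6-positive samples. These folds and the shares that follow depend on the TMM factors. In the CD44v6-negative samples the factors raise the level of sample 1 and lower that of sample 2, which widens their gap. Among the 570 tested miRNAs, 10.4% differed at least as much as miR-34a-5p between the CD44v6-negative samples and 27.0% between the CD44v6-positive samples, and the median miRNA differed 1.57-fold and 1.89-fold. Group means were 1262 ± 941 CPM in CD44v6-negative and 545 ± 454 CPM in CD44v6-positive cells (SD, n = 2). The log2 fold change of -1.20 ± 0.84 (SE) did not pass (edgeR adjusted p = 0.378). It was -0.05 and -1.66 without CD44v6-negative samples 1 and 2, and -2.60 and -0.36 without CD44v6-positive samples 1 and 2. With total count scaling, which uses no TMM factor, it was -0.78. By mean CPM miR-34a-5p ranked 75 among 1485 miRNAs with a read in CD44v6-negative cells and 89 among 935 in CD44v6-positive cells.

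**Figure D1:**
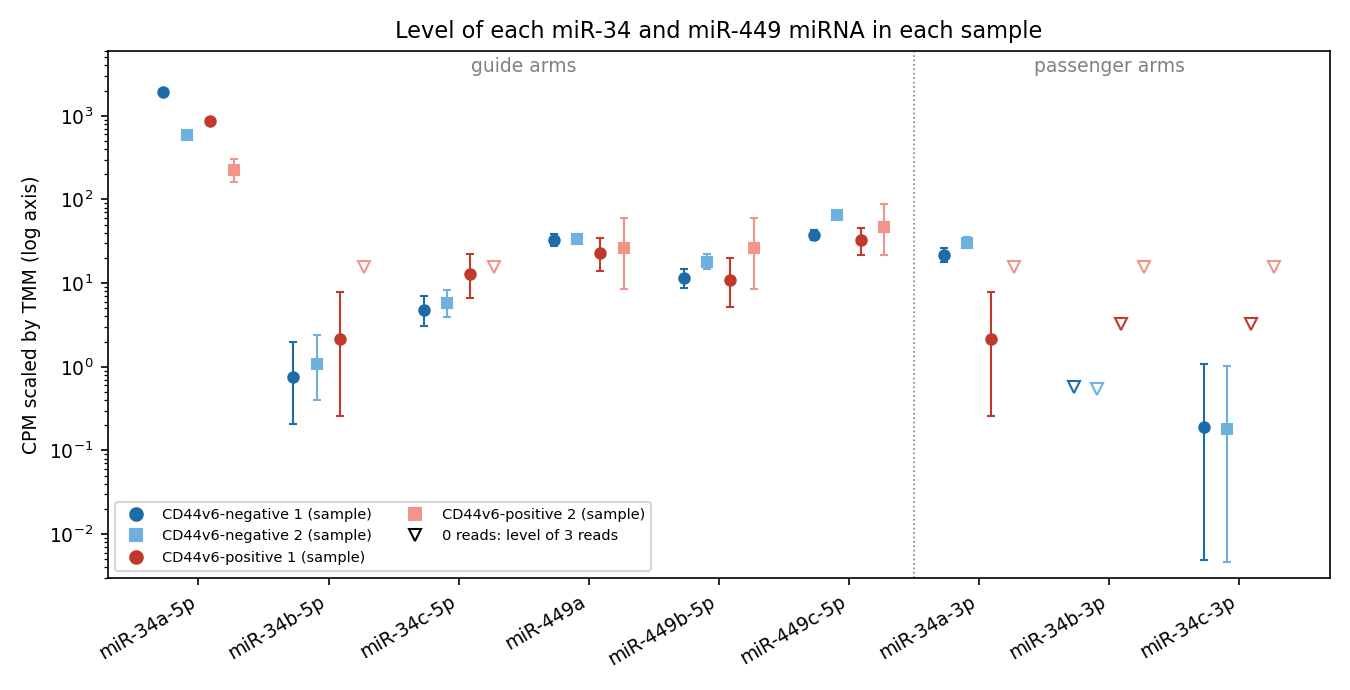
Level of each member in each sample, as CPM scaled by TMM on a log axis. Blue points are CD44v6-negative and red points CD44v6-positive samples (circles sample 1, squares sample 2), bars are 95% Poisson intervals of the count, and open triangles mark the level of 3 reads where a count was 0. miR-34a-5p stands highest in every sample, at 224 to 1928 CPM, and the miR-449 guide arms lie together at 10.8 to 66.1 CPM.

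miR-34a-3p, the passenger arm of the same hairpin, had the largest fold change of the 6 tested members. It was read 114 and 168 times in CD44v6-negative but 2 and 0 times in CD44v6-positive cells. At the mean level of the CD44v6-negative samples, 26.1 ± 6.11 CPM (SD, n = 2), the depth of CD44v6-positive samples 1 and 2 would give 24.2 and 5.02 reads. The groups did not overlap, which also held for 59.5% of all tested miRNAs. The log2 fold change was -3.92 ± 0.98 (edgeR unadjusted p = 0.0063, adjusted p = 0.110), so miR-34a-3p did not pass. With 2 and 0 reads in CD44v6-positive cells it passed the filter on low counts only through the CD44v6-negative samples, a selection that favours a negative fold change and groups without overlap. The mean level of the CD44v6-negative samples was 24.2 times that of the CD44v6-positive samples. From reads summed over the samples of a group, which weights the deeper library more, the ratio was 14.7 with a 95% exact interval of 4.03 to 122 that covers counting error only, and rests on 2 reads in CD44v6-positive cells. The same 2 ratios were 2.32 and 1.65 (1.54 to 1.77) for miR-34a-5p.

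The call of miR-34a-3p depended on the test. DESeq2 with its default settings, the planned run, gave an adjusted p of 0.0506. Other DESeq2 settings were added after the data were seen. DESeq2 restricted to the miRNAs that edgeR tested gave 0.0431 (14.3% of miRNAs called), and DESeq2 tuned to 0.05 gave 0.0387 (17.5% called). With edgeR and no filter on low counts the adjusted p was 0.0158 (5.1% called). The fold change was negative in every one of the 14 alternative fits, from -9.58, where CD44v6-positive sample 2 with its 0 reads stood alone for its group, to -3.29. All of these fits use the same reads, so their common sign is not separate evidence.

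The share of the 2 arms within the miR-34a hairpin does not depend on how the libraries are scaled. miR-34a-3p made up 1.12% of 10197 miR-34a reads in CD44v6-negative sample 1 (95% Wilson interval 0.932% to 1.34%) and 4.85% of 3465 reads in CD44v6-negative sample 2 (4.18% to 5.61%). In CD44v6-positive sample 1 it made up 0.248% of 805 reads (0.0682% to 0.901%). In CD44v6-positive sample 2 there were 0 of 43 reads, which allows a share of up to 6.98%. The interval of CD44v6-positive sample 1 rests on 2 reads. It ended at 0.901%, just below the 0.932% where that of CD44v6-negative sample 1 began, and below that of CD44v6-negative sample 2. A difference of CD44v6-positive sample 2 was not detectable at its depth. miR-34a-3p passed the filter on low counts only through the CD44v6-negative samples, a selection that also favours a lower share in CD44v6-positive cells. At the arm ratios of CD44v6-negative samples 1 and 2, the miR-34a-5p reads of CD44v6-positive sample 1 would come with 9.08 and 40.9 reads of miR-34a-3p, against 2 observed, and those of CD44v6-positive sample 2 with 0.486 and 2.19 reads, against 0 observed. The CD44v6-negative samples also differed from each other in this share, without overlap of their intervals. The shares are given as a description without a test between the groups. An exact two-sided permutation test of 2 samples against 2 cannot give a p below 0.333.

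**Figure D2:**
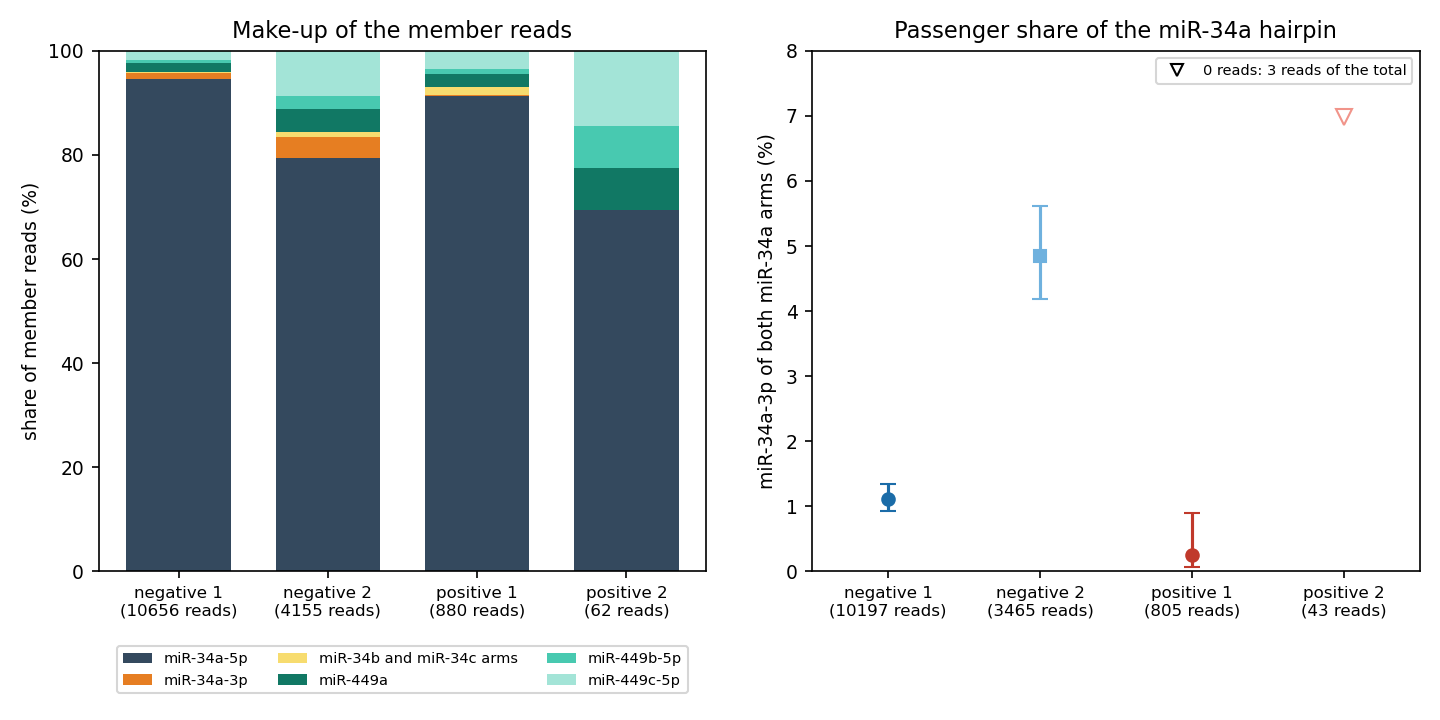
Left, share of the reads of all 9 members taken by each member, in percent, in each sample, with the arms of miR-34b and miR-34c joined. Right, miR-34a-3p as a percentage of the reads of both miR-34a arms, with 95% Wilson intervals, and an open triangle at the limit that 0 of 43 reads allows. miR-34a-5p takes 69.4% to 94.6% of the member reads, and the passenger share is 1.12% and 4.85% in CD44v6-negative samples 1 and 2 and 0.248% in CD44v6-positive sample 1.

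miR-34b and miR-34c, which share a transcript and are the second p53-induced gene of the family, had few reads. miR-34c-5p was read 25 and 32 times in CD44v6-negative cells (4.78 and 5.80 CPM) and 12 and 0 times in CD44v6-positive cells. The 12 reads of CD44v6-positive sample 1 were 12.9 CPM, the highest level of the 4 samples, and the 0 reads of CD44v6-positive sample 2 allow up to 15.6 CPM, so the latter library could not show a difference. Its log2 fold change of 0.71 ± 0.99 did not pass (edgeR adjusted p = 0.642), and was -7.28 without CD44v6-positive sample 1, where its group had no read left. Without CD44v6-positive sample 2 it was 1.52.

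The other arms of this gene were too rare to test. miR-34b-5p had 4 and 6 reads against 2 and 0 reads, and miR-34c-3p had 1 read in each CD44v6-negative sample and 0 in the others. miR-34b-3p had 0 reads in each of the 4 samples. In each of the 3 samples in which both were seen, miR-34c-5p had more reads than miR-34b-5p.

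The miR-449 guide arms were lower than miR-34a-5p in every sample. miR-449c-5p, the most read of the cluster, gave 197 and 365 reads (37.7 and 66.1 CPM) in CD44v6-negative and 30 and 9 reads (32.3 and 46.9 CPM) in CD44v6-positive cells. The groups overlapped. miR-449a had 172 and 186 reads (32.9 and 33.7 CPM) against 21 and 5 reads (22.6 and 26.0 CPM). miR-449a was lower in CD44v6-positive cells without overlap, as were 34.6% of all tested miRNAs. However, the Poisson intervals of its CD44v6-positive samples, 14.0 to 34.6 and 8.45 to 60.8 CPM, hold both CD44v6-negative levels. miR-449b-5p, which shares most of its sequence with miR-449a, had 60 and 100 reads (11.5 and 18.1 CPM) against 10 and 5 reads (10.8 and 26.0 CPM), and its lowest and highest levels both lay in CD44v6-positive samples.

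None of these 3 passed, with log2 fold changes of -0.43 ± 0.64 for miR-449c-5p, -0.47 ± 0.60 for miR-449a and 0.15 ± 0.77 for miR-449b-5p (edgeR adjusted p = 0.671, 0.630 and 0.908). With upper quartile and total count scaling, under which the median of all miRNAs rose by 0.34 and 0.31, miR-449c-5p and miR-449a stayed negative at -0.11 and -0.25 and at -0.14 and -0.22, and miR-449b-5p stayed positive. Without CD44v6-negative sample 2, miR-449c-5p was 0.21. Of the passenger arms outside the family list, miR-449b-3p was read 9 and 3 times in CD44v6-negative and 2 and 0 times in CD44v6-positive cells, and miR-449c-3p 0 and 2 times against 0 and 0.

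**Figure D3:**
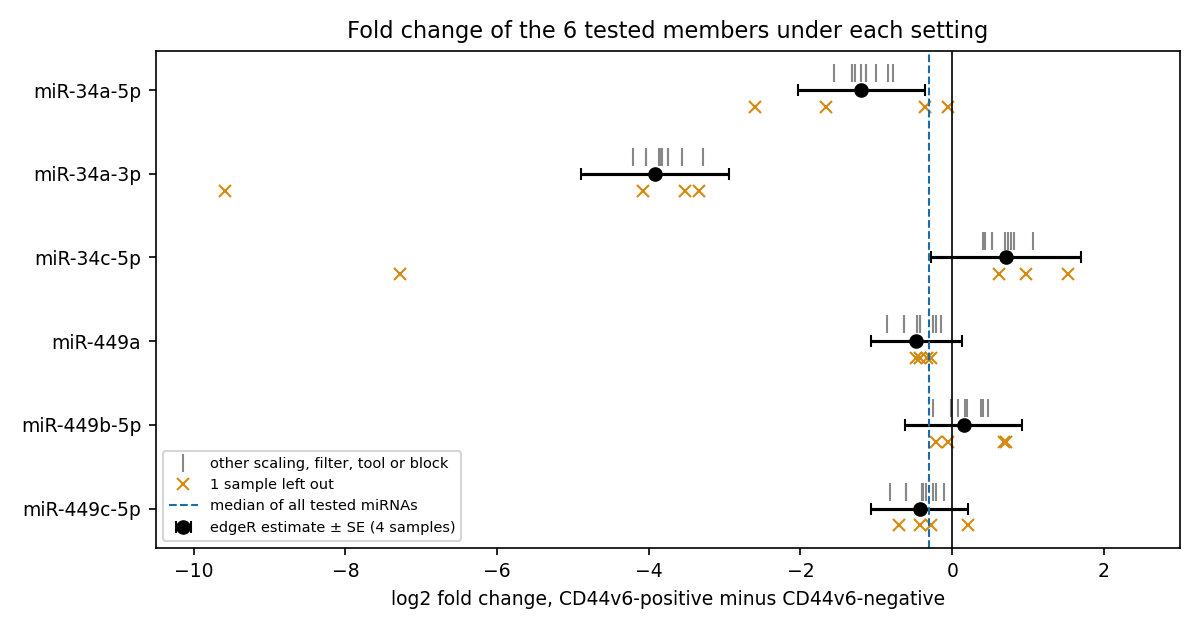
Log2 fold change (CD44v6-positive minus CD44v6-negative) of the 6 tested members. Black points are edgeR estimates from 4 samples with their standard error, orange crosses leave out 1 sample, grey ticks use another scaling, filter, tool or a replicate block, and the dashed line is the median of all 570 tested miRNAs, -0.31. The values of miR-34a-3p all lie below -3, those of miR-34a-5p run from -2.60 to -0.05, and those of miR-449b-5p fall on both sides of 0.

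Within each sample, miR-34a-5p made up 94.6% and 79.4% of all member reads in CD44v6-negative samples 1 and 2, and 91.2% and 69.4% in CD44v6-positive samples 1 and 2 (95% Wilson intervals 94.2% to 95.0%, 78.1% to 80.6%, 89.2% to 92.9% and 57.0% to 79.4%). The 3 miR-449 guide arms made up 4.03%, 15.7%, 6.93% and 30.6% in the same order. For each read of a miR-449 guide arm there were 23.5 and 5.06 reads of miR-34a-5p in the CD44v6-negative and 13.2 and 2.26 in the CD44v6-positive samples, so the groups overlapped in this ratio. The summed level of the 3 miR-449 guide arms ran from 65.8 to 118 CPM over the 4 samples, a narrower range than that of miR-34a-5p.

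By seed, the 3 arms with GGCAGUG at bases 2 to 8 summed to 1972 and 649 CPM in the CD44v6-negative and 899 and 276 CPM in the CD44v6-positive samples. The 2 arms with the run 1 base later summed to 38.4 and 67.2 CPM against 34.5 and 46.9 CPM. The guide arm miR-34c-5p, which had no RefSeq entry, is in neither sum. Both seed groups overlapped between CD44v6-positive and CD44v6-negative cells. All reads of the 9 members together were 0.135% and 0.0905% of the CD44v6-negative and 0.0957% and 0.0401% of the CD44v6-positive libraries.

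The 8 members with a RefSeq sequence are 22 to 25 bases long, so levels were compared without scaling by length. The order below is one of reads, and how well reads reflect the amounts of different miRNAs was not tested. The places of miR-449a and miR-449b-5p also carry the uncertain split of their reads. In CD44v6-negative cells the order of the mean levels was miR-34a-5p, miR-449c-5p (51.9 ± 20.1 CPM), miR-449a (33.3 ± 0.576 CPM), miR-34a-3p, miR-449b-5p (14.8 ± 4.70 CPM), miR-34c-5p (5.29 ± 0.720 CPM) and miR-34b-5p (0.926 ± 0.228 CPM), and no 2 neighbours of this order overlapped in their sample values. In CD44v6-positive cells it was miR-34a-5p, miR-449c-5p (39.6 ± 10.3 CPM), miR-449a (24.3 ± 2.40 CPM), miR-449b-5p (18.4 ± 10.8 CPM) and miR-34c-5p (6.47 ± 9.15 CPM), followed by miR-34a-3p and miR-34b-5p at 2 reads each. There the sample values of each pair of neighbours from miR-449a downward overlapped.

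**Figure D4:**
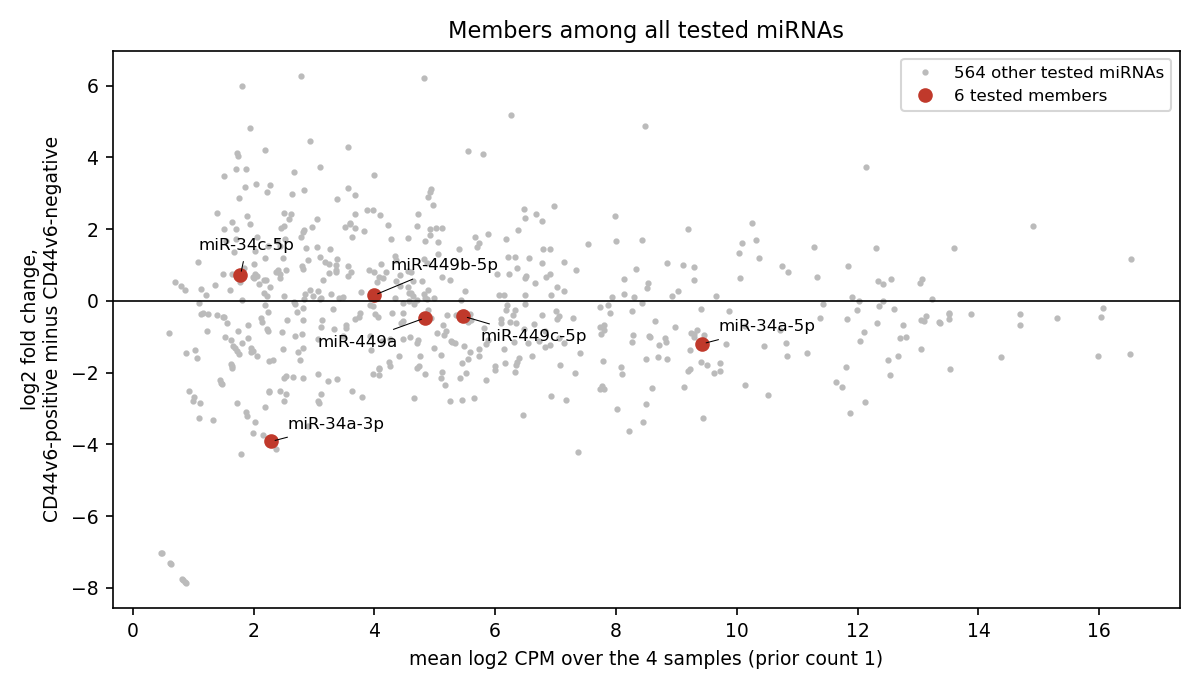
Log2 fold change (CD44v6-positive minus CD44v6-negative) against mean log2 CPM over the 4 samples (prior count 1) for the 570 tested miRNAs, with the 6 tested members in red. miR-34a-5p lies at -1.20 among abundant miRNAs, miR-34a-3p at -3.92 among rare ones, and the other 4 between -0.47 and 0.71.

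The 5 miRNAs whose pattern over the 4 samples was closest to that of miR-34a-5p were miR-95-3p, miR-210-3p, miR-100-5p, miR-532-5p and miR-221-5p. Likeness was the root mean square difference of log2 CPM after centring each miRNA on its mean, which ran from 0.149 to 0.269 for these 5 against a median of 1.39 over 569 miRNAs. miR-210-3p, known for its induction by hypoxia, had 1655 and 456 CPM in CD44v6-negative and 943 and 245 CPM in CD44v6-positive cells. miR-95-3p, the closest, had 95.0 and 31.7 CPM against 53.9 and 10.4 CPM. The last of these levels was 2 reads, under the 15.6 CPM that 3 reads make in CD44v6-positive sample 2. Within the family the difference from miR-34a-5p was 1.06 for miR-449a, 1.33 for miR-449c-5p, 1.37 for miR-34c-5p, 1.59 for miR-449b-5p and 1.96 for its own passenger arm miR-34a-3p. Each of these members had 30 reads or fewer in both CD44v6-positive samples, so counting error enters their differences. All these values are scaled by TMM, come from the same 4 libraries and describe them only.

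Of 14 other miRNAs linked to p53 in earlier work, 13 were tested and 0 passed with edgeR, 2 had an unadjusted p under 0.05, and DESeq2 and limma-voom called 2 (miR-1246 and miR-141-3p) and 1 (miR-1246) of them. Over all tested miRNAs these shares were 0% with edgeR, 30.5% at an unadjusted p, 8.81% with DESeq2 and 0.702% with limma-voom. Their fold changes were above 0 in 7 and below 0 in 6, with a median of 0.06. The 3 with the smallest edgeR p, none of which passed with edgeR, were miR-1246 (log2 fold change 4.88 ± 0.65), miR-141-3p, an epithelial miRNA of the miR-200 family that is also on the epithelial marker list (-2.41 ± 0.57), and miR-145-5p (-1.22 ± 0.57).

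Of 8 other miRNAs reported to target CD44, 7 had a row, 3 were tested and 0 passed with edgeR, DESeq2 or limma-voom, with 1 at an unadjusted edgeR p under 0.05. miR-328-3p stood at 21.8 and 11.1 CPM in CD44v6-negative and 76.6 and 57.3 CPM in CD44v6-positive cells and had a log2 fold change of 2.04 ± 0.66 without passing (edgeR adjusted p = 0.12). miR-671-5p was at -0.83 ± 0.54, and the joint entry of miR-199a-3p and miR-199b-3p at 0.76 ± 0.61. The groups did not overlap in any of these 3, with 2 higher and 1 lower in CD44v6-positive cells, beside the 24.9% and 34.6% of all tested miRNAs that did not overlap in these directions. The joint entry was barely apart, at 66.5 and 51.1 CPM against 67.9 and 135 CPM, with 63 reads behind the 67.9 CPM.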

How the data were processed

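The authors deposited raw read counts per mature miRNA as 1 table of whole numbers, per the file headers 1 column for each of the 4 combined identities of the labels. The submitters' processing notes name CASAVA 1.8.2, Bowtie 0.12.9, cutadapt 1.10, GRCh38 and DESeq2, without their roles. The sources used here do not give the miRNA annotation or the handling of reads with several matches. A normalized table was not used here. No label states that samples of 1 group were cultured separately, so the spread behind each p-value may be technical.

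Differences were tested with edgeR 4.0.16 in R 4.3.3 (quasi-likelihood, TMM, filterByExpr with minimum counts of 10 and 15 in total) on the whole table, with Benjamini-Hochberg adjustment and a threshold of 0.05. The fit was run on simulated counts only to check that its estimates followed known fold changes. How many true changes it would call with so few samples is not reported here. Standard errors were derived from the log2 fold change and its F statistic. Alternatives used other scalings and filters, DESeq2 1.42.0, limma 3.58.1, a replicate block, and 1 sample left out. Named miRNAs are the members, the other arms, entries sharing the seed run, the 3 smallest p of each list and the 5 nearest patterns. The markers miR-122-5p, miR-486-5p, miR-451a, miR-9-5p and miR-206 are named outside this rule, chosen after their values were seen. The members and lists were chosen with earlier results of these data known. Sequences are from RefSeq.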

Additional observations from a re-analysis of the deposited data

How the results depend on the processing

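Counts of members past the threshold were 0 with TMM, RLE, upper quartile and total count scaling, with the filter of 10 CPM, with DESeq2 at its defaults, with limma-voom and whichever sample was left out. They were 1 (miR-34a-3p) with no filter and with both DESeq2 settings added after seeing the data. Over all miRNAs the counts were 48 with total count scaling, 77 with no filter, 52 with DESeq2, 75 with DESeq2 on the miRNAs edgeR tested, 73 with DESeq2 tuned to 0.05, 4 with limma-voom, and 26 to 55 with 1 sample left out. Of the p53-linked and CD44-targeting miRNAs, in the same order, 3, 2, 2, 2, 2, 1 and 1 to 3 passed. The fold change of miR-449b-5p was -0.25 with no filter, -0.019 with DESeq2 at its defaults and tuned to 0.05, and with 1 sample left out -0.21 (CD44v6-positive sample 2) to 0.71, reversing also at -0.06 (CD44v6-negative sample 1). The ranges with 1 sample left out were -0.70 to 0.21 for miR-449c-5p, reversing when CD44v6-negative sample 2 was dropped, and -7.28 to 1.52 for miR-34c-5p, reversing when CD44v6-positive sample 1 was dropped. With 1 sample left out, the lone sample of a group is assumed to vary like the other group. miR-34c-5p did not reach the filter of 10 CPM.

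With the sample number as a replicate block, 2 members passed (miR-34a-5p at -1.28, adjusted p = 0.00209, and miR-34a-3p at -3.75, adjusted p = 0.00167), as did 228 of all 570 miRNAs (40%) and 7 of the listed ones. The labels do not say that the numbers pair the samples. Over 570 miRNAs, the differences between samples 1 and 2 of the 2 groups correlated at r = 0.344, which describes 2 pairs and gives no p. The depth of CD44v6-positive sample 2, 154481 reads, limits each comparison of members under about 15.6 CPM.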
